A study of Mus musculus with 12 samples.

Results

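The nuclear genes of oxidative phosphorylation were followed in mouse brain tissue after photodynamic therapy. Members were chosen by gene name: names that begin with Nduf, Uqcr, Cox4 to Cox8 or Atp5, and the 4 Sdh genes, leaving out 9 names marked as pseudogenes with -ps. This gave 98 members of the 54532 genes in the deposited table. By name they were classed as 7 core subunits, 32 accessory subunits and 8 assembly factors of complex I. The others were classed as 4 genes of complex II, 8 of complex III, 21 of complex IV and 18 of complex V. Processed pseudogenes without -ps in their names remain, namely Ndufa11b, Ndufb4c and Ndufs6b in the accessory class and Cox6c2 in complex IV. Of the 98, 96 passed the filter of more than 0.5 FPKM (fragment counts corrected for gene length and sequencing depth) in at least 3 of the 12 libraries and were tested among 17664 genes. The members not tested were Cox8c, at 0 in every library, and a second entry named Atp5o, also at 0 in every library.

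The 12 RNA-seq libraries fall into 4 groups of 3. Treated mice received 5-aminolevulinic acid (5-ALA), a heme precursor that cells turn into a light-absorbing porphyrin, at 20 mg/kg. After 30 min they were irradiated with a 635 nm laser at 20 J/cm2, and brains were collected at 1.5 h, 12 h or 48 h, after perfusion with 0.9% NaCl. Control libraries carry the title PBS and the label untreated; whether control mice were injected or irradiated is not given in the sources used here. The labels name BALB/c in one field and C57BL/6 in another, and give no brain region, age or hour of collection. Replicates keep the numbers of their titles (control 1, 2 and 4; 1.5 h 1, 2 and 3; 48 h 1, 3 and 4), and 12 h has replicates 1 and 2 and a library here called unnumbered, because its column matches no title of that group. No label says that replicates came from separate animals, so p-values measure the spread between libraries only.

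Oxidative phosphorylation is carried out in the inner mitochondrial membrane. Complexes I and II pass electrons from NADH and succinate to coenzyme Q, complex III passes them to cytochrome c, and complex IV passes them to oxygen, while complex V uses the resulting proton gradient to make ATP. Most subunits are encoded in the nucleus and a minority in mitochondrial DNA, and neurons depend heavily on this pathway for ATP.

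Promoter stretches are shown for Sdha and Sdhd, complex II genes whose values at 12 h are set side by side, and for Cox7a1, the complex IV gene above every control in every treated library. Each is the 150 bases before the RefSeq transcript start on GRCm38.p6, written 5′ to 3′ on the gene's strand. Capitals mark matches on either strand to the palindromic motif of nuclear respiratory factor 1 (NRF1), or to CCGGAAG or ACTTCCG, motifs of the ETS family of transcription factors.
Sdha, chr13:74350241-74350390, minus strand: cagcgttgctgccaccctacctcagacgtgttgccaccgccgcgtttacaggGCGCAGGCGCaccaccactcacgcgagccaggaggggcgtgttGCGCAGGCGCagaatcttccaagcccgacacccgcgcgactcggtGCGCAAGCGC
Sdhd, chr9:50603850-50603999, minus strand: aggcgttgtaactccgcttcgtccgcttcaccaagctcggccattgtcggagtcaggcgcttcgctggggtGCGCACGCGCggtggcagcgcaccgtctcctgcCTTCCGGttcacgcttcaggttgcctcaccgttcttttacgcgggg
Cox7a1, chr7:30184021-30184170, plus strand: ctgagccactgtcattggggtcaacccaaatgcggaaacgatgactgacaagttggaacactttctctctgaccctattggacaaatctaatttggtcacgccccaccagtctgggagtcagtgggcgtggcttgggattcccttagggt
The Sdha stretch holds 3 matches to the NRF1 motif, the Sdhd stretch holds 1 NRF1 and 1 ETS match, and the Cox7a1 stretch holds none of these letters. Of the 97 member names, 74 matched the RefSeq table, with 79 promoters of 250 bases before to 50 after the start. The NRF1 motif was in 25.3% of them, against 9.0% of the promoters of tested protein-coding genes and 4.6% of all promoters. The ETS motifs were in 26.6%, against 18.8% and 10.9%, and the YY1 motif AAGATGGC, also searched on both strands, was in 12.7%, against 4.0% and 2.7%. These are shares of letter matches and no test was made on them.

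The libraries differed in ways their groups do not account for. Read totals recovered from the FPKM values were 15348579 to 17444654. The 1.5 h replicates 1 and 3 stood apart: their median member was 2.04 and 1.30 above the control mean on the log2(FPKM + 1) scale, against 0.03 in 1.5 h replicate 2. In that pair, 12.4% and 9.1% of reads were mitochondrial, against 4.2% to 6.1% in the other libraries, and the median cytosolic ribosomal protein gene was 2.25 and 1.44 above the control mean. Summed FPKM of 8 microglial markers was 350.1 and 226.8 in the pair and 133.4 to 141.4 in the controls. Mitochondrial rRNA was 5.51% and 2.18% of reads in the pair and 0.62% to 0.82% in the controls. In replicate 1 alone, summed red blood cell markers were 364.9 (controls 0.78 to 30.1) and oligodendrocyte markers 1725 (controls 1031 to 1220). Choroid plexus markers were 7.0 in replicate 1 and 3.16 in replicate 2, against 425.8 to 671.4 in the controls. Summed neuronal markers were at 1379, 1370 and 1249 in the 3 libraries, against 1084 to 1187, and this sum did not set the pair apart. Single neuronal markers did, in both directions. Syt1 was 75.7 and 94.4 in the pair, 163.8 in replicate 2 and 154.5 to 172.4 in the controls, and Gad2 was also lower in the pair. Tubb3 was 344 and 312 in the pair, 189 in replicate 2 and 185 to 218 in the controls, and Stmn2 was also higher in the pair. The part of these values in the members' levels was not tested. In bulk tissue, fewer cells of a type and less RNA per cell cannot be told apart.

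**Figure D1:**
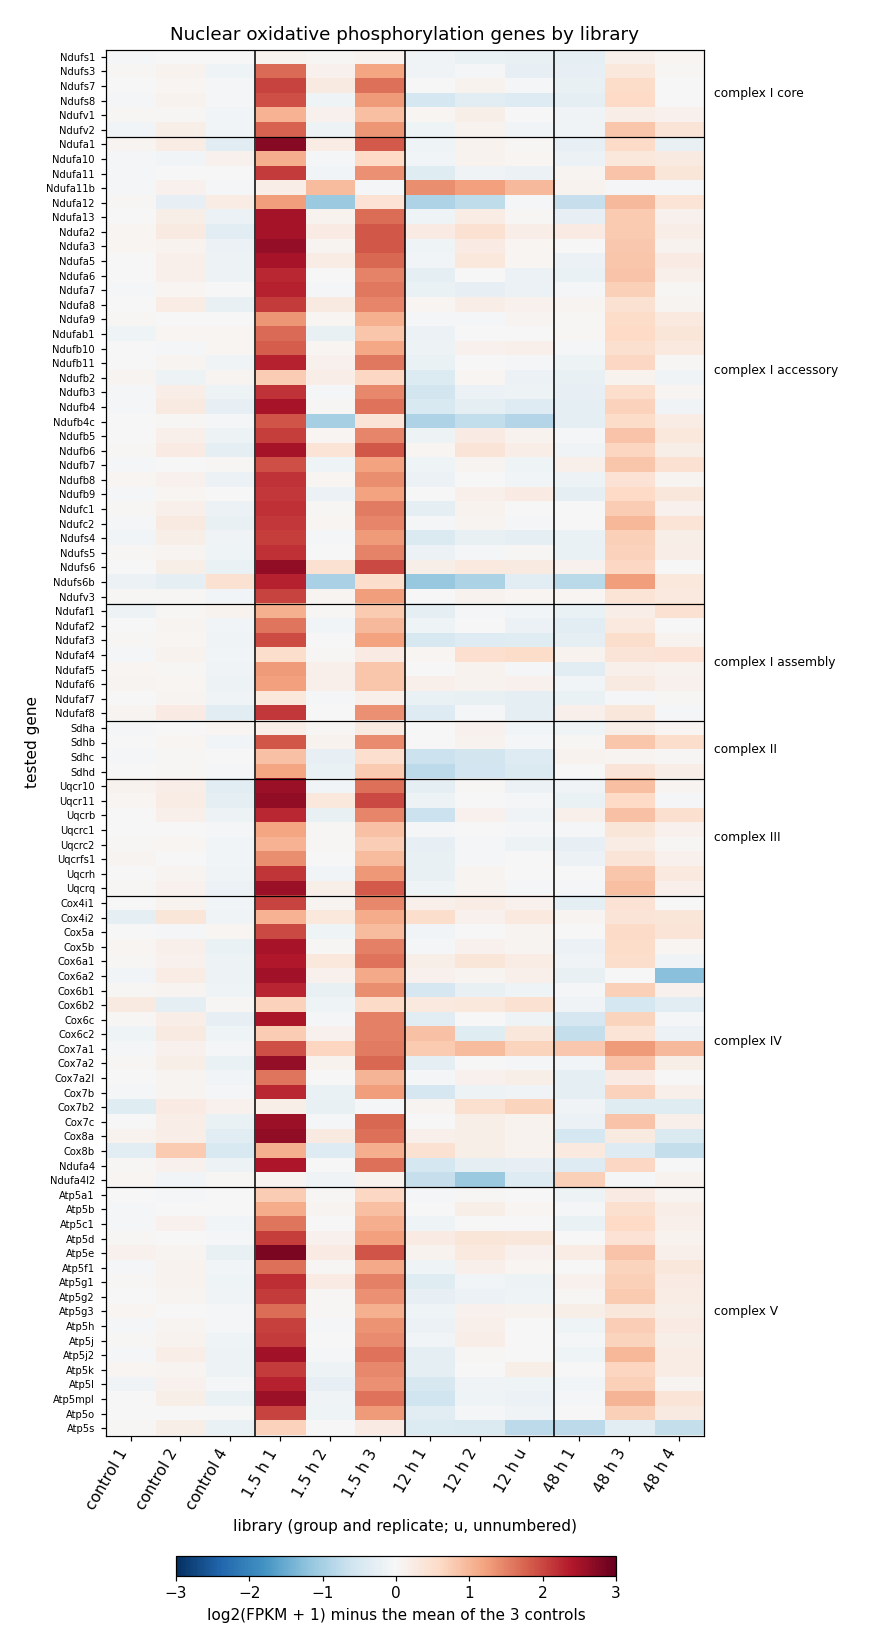
Each row is 1 of 95 of the 96 tested members, grouped by role, and each column 1 library; the colour gives log2(FPKM + 1) minus the mean of the 3 controls, limited to 3 in either direction. Nearly all rows are red in 1.5 h replicates 1 and 3 and paler red in 48 h replicate 3, and Cox7a1 is red in all 9 treated libraries.

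At 1.5 h, most members were higher in 2 of the 3 libraries and near the control level in the third. Replicate 1 had 95 of 96 members above all 3 controls and replicate 3 had 94, where 43.3% and 40.5% of all tested genes were above. Replicate 2 had 29 members above and 19 below, or 30.2% and 19.8%, against 34.2% and 28.3% of all genes. With all 3 libraries the median member change was 1.12 on the log2 scale, against 0.02 over all genes, and 95 of 96 members had a positive mean change. Only Cox7a1 passed the test (limma, Benjamini-Hochberg adjusted p below 0.05 over all genes), or 1 of 96 members where 0.555% of all genes were called. Without replicate 2, 86 members were called, and 8071 of the 17664 genes. At an unadjusted p below 0.05 there were 79 members, and 31.6% of all genes. Groups did not overlap for 28 members, all higher, or 29.2%, where 14.6% of all genes were higher without overlap. Without replicates 1 and 3 the median member change was 0.03 and no member was called by limma, where 0.13% of all genes were (3 members and 9.07% of all genes at an unadjusted p below 0.05), with the remaining library assumed to vary like the other groups. By voom on recovered reads of all 12 libraries, no member was called at 1.5 h either. The share of all genes called by voom is not given here, so this count says nothing about the members in particular.

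The size of the difference in the pair differed between the role classes. Shorter coding sequences also went with larger differences in the pair, and role and coding length were not separated. Within complex II, the 4 genes ran from 1.14-fold (Sdha) to 3.70-fold (Sdhb) above the control mean FPKM in replicate 1. Complexes III, IV and the accessory subunits of complex I were farthest from control in replicate 1, with medians of 2.20, 2.14 and 2.15. Complex V had a median of 2.07, the core of complex I 1.70, its assembly factors 1.26 and complex II 1.03. In replicate 3 the class medians ran from 1.44 for accessory subunits to 0.64 for complex II, and every class in replicate 2 lay between -0.08 and 0.12.

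**Figure D2:**
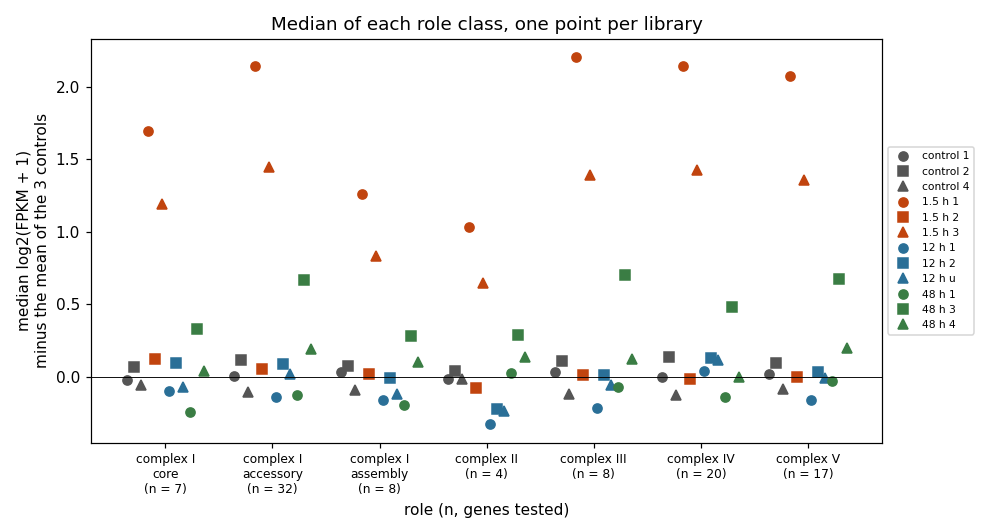
Points give the median log2(FPKM + 1) difference from the control mean over the tested members of each role class, one point per library. The orange circle and triangle (1.5 h replicates 1 and 3) lie above every other library in every class, and the green square (48 h replicate 3) is the next highest.

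The core of complex I carries the electron transfer. Ndufs1, the largest core subunit and the longest gene of this class, was at 15.3, 15.9 and 15.9 in the controls and at 17.1, 16.2 and 17.1 at 1.5 h. Its 3 treated libraries were above the controls by a small margin, with a change of 0.09 ± 0.12 (limma adjusted p = 0.62) that turned to -0.11 with quantile normalization.

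Among accessory subunits, which surround the core, Ndufa1 was at 119.5, 131.7 and 89.1 FPKM in the controls and 742.7, 130.8 and 406.1 at 1.5 h. Replicate 2 lay inside the control range, and the change of 1.60 ± 0.50 did not pass the test (limma adjusted p = 0.094). Ndufab1, the mitochondrial acyl carrier protein, was at 7.73, 8.95 and 8.94 in the controls and 30.1, 7.13 and 16.1 at 1.5 h, with replicate 2 below all controls (change 0.77, and -0.23 without the pair). Of the assembly factors, which help build complex I without staying in it, Ndufaf8 was at 19.2, 21.7 and 14.3 in the controls and 81.9, 18.3 and 48.2 at 1.5 h. Ndufaf4 was nearer to the controls, at 10.8, 7.31 and 8.68 against 6.96, 7.86 and 6.73.

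Complex III showed the same order of libraries. Uqcr10, a small subunit, was at 161.7, 173.3 and 120.4 FPKM in the controls and 912.7, 142.1 and 474.7 at 1.5 h (change 1.39 ± 0.53, limma adjusted p = 0.12; -0.08 without the pair). Uqcrc1, a large core protein, was at 67.3, 67.2 and 64.7 against 151.3, 68.4 and 122.0, without overlap (change 0.70 ± 0.24, limma adjusted p = 0.10). In complex IV the member with the highest mean was Cox8a, at 975.8, 1034 and 722.1 in the controls and 5662, 1081 and 2845 at 1.5 h. All 3 treated libraries were above the controls, replicate 2 by a small margin (change 1.53 ± 0.50, limma adjusted p = 0.098). Cox6c, the longest gene of the class, was at 66.6, 75.2 and 54.7 against 360.1, 63.1 and 185.5, with replicate 2 inside the control range (change 1.30, and -0.04 without the pair).

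In complex V, Atp5b encodes the catalytic beta subunit and had the highest mean. It was at 278.5, 287.3 and 284.1 FPKM in the controls and 611.8, 302.2 and 527.5 at 1.5 h, without overlap (change 0.70 ± 0.25, limma adjusted p = 0.11), and with quantile normalization the change was -0.0192. Atp5l, subunit g, was at 14.5, 17.2 and 15.2 against 81.8, 13.1 and 41.9, and replicate 2 was below all controls (change 1.15, and -0.23 without the pair). FPKM divides by the deposited gene length, which for some members is far above the coding length (6443 against 309 bases for Atp5l), so levels of different members compare on that scale only.

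Across the 92 tested protein-coding members, shorter coding sequences went with larger differences in the pair. Atp5e, with 156 coding bases, was 7.21-fold above the control mean FPKM in replicate 1, while Sdha, with 1992, was 1.14-fold and Ndufs1, with 2181, was 1.08-fold above it. Pearson's r between log2 coding length and the log2 difference was -0.60 in replicate 1, 0.03 in replicate 2, -0.55 in replicate 3 and -0.32 in 48 h replicate 3. Among the controls it was -0.08, -0.38 and 0.48 in replicates 1, 2 and 4, so the value in 48 h replicate 3 lay within the range of the controls. These correlations run across genes that share a library and are not independent, and are given as descriptions. In replicate 1 the 54 members under 500 coding bases had a median of 2.26, the 25 from 500 to 1000 had 1.82 and the 13 longer ones had 1.10. Other protein-coding genes had medians of 0.91 under 500 bases (1207 genes) and -0.16 from 1000 bases (9439 genes) in the same library. Members were thus above other genes of their length class in replicate 1 in both classes. In replicate 3 the members' 3 medians were 1.48, 1.20 and 0.79, and the other genes' were 0.57 and -0.11.

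**Figure D3:**
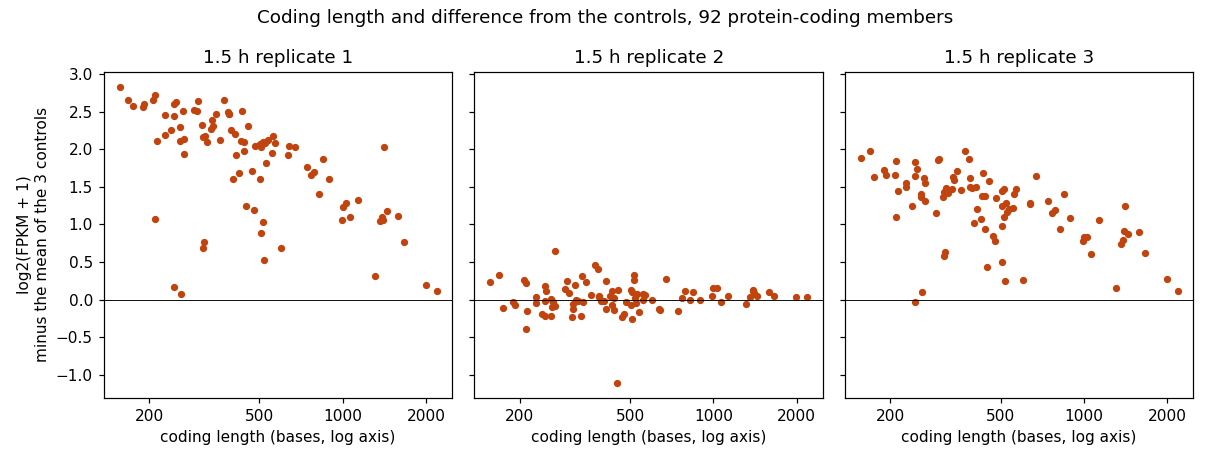
Each point is 1 of the 92 tested protein-coding members: coding length in bases on a log axis against log2(FPKM + 1) minus the control mean, for the 3 libraries at 1.5 h. Points fall from left to right in replicates 1 and 3 (r of -0.60 and -0.55) and lie flat near 0 in replicate 2 (r of 0.03).

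Cox7a1 encodes the heart and muscle form of subunit 7a of complex IV. Its FPKM was 1.30, 1.59 and 1.28 in the controls, 8.16, 2.75 and 6.01 at 1.5 h, 3.11, 3.59 and 2.82 at 12 h, and 3.19, 4.8 and 3.68 at 48 h. All 9 treated libraries were above all 3 controls, and replicates 1 and 3 at 1.5 h were highest. The reads behind these values were few, 12, 15 and 12 in the controls and 24 to 53 in the treated libraries.

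The change of Cox7a1 was 1.38 ± 0.26 at 1.5 h (limma adjusted p = 0.049), 0.80 ± 0.26 at 12 h (adjusted p = 0.052) and 1.02 ± 0.26 at 48 h (adjusted p = 0.028), each with n = 3 and 3. The rise passed the test at 1.5 h and 48 h and missed it at 12 h. At 1.5 h the call did not hold without replicate 1 (adjusted p = 0.12), without replicate 3 (0.16), or without control 1, 2 or 4 (0.19, 0.16 and 0.18), nor with no filter on low values, 2 groups in the fit, the replicate block or voom (0.11, 0.28, 0.37 and 0.078). At 48 h it did not hold without any one control (0.092, 0.068 and 0.083) or without 48 h replicate 3 (0.10) or 4 (0.067), nor with no filter or the block (0.060 and 0.22). With the 1.5 h pair left out the adjusted p was 0.35 at 1.5 h, 0.0020 at 12 h and 0.00090 at 48 h. Muscle markers did not pass the test in any comparison with control, and 2 of 9 were tested. Summed FPKM over all 9 was 6.06 to 7.21 in the controls, 7.23 to 9.30 at 12 h and 5.83 to 7.95 at 48 h. In the 1.5 h pair the sum was 19.9 and 14.6, of which Acta1 was 18.3 and 13.2 (controls 4.36 to 5.13). Myh6, the other marker tested, was 0.67 and 0.61 in the pair and 0.79 to 0.99 in the controls.

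At 12 h the members as a whole lay near the controls, with a median change of -0.03 against 0 over all genes. Of 96 members, 1 rose (Ndufa11b) and 1 fell (Ndufa4l2), or 2.08%, where 21.2% of all genes were called by limma. Ndufa11b passed the filter on low values only through the 12 h group, so its call has no weight and no test of it is given. Groups did not overlap for 7 members that were higher (7.29%) and 21 that were lower (21.9%), against 28.2% and 26.2% of all genes. The median absolute change was 0.14 for members and 0.28 for all genes. The members' median standard error was 0.40, against 0.18 for all genes, because 1 fit over 12 libraries shares the spread of the 1.5 h group. With the 1.5 h pair left out those errors were 0.17 and 0.13, and 7 members were called (7.29%), Ndufa11b among them, where 35.2% of all genes were.

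Ndufa4l2 is the paralog of Ndufa4, a small subunit now placed in complex IV. Its FPKM was 2.0, 1.71 and 1.93 in the controls and 0.79, 0.34 and 1.20 at 12 h, without overlap, and it fell by 0.73 ± 0.21 on the log2 scale (limma adjusted p = 0.034). Reads were 38, 33 and 37 against 13, 6 and 21, and the call did not hold without any one control (adjusted p = 0.10, 0.073 and 0.089) or without 12 h replicate 1 (0.077) or 2 (0.13), nor with no filter (0.065). At 1.5 h it was at 2.03, 1.68 and 2.09, and at 48 h at 3.75, 1.75 and 2.09, where replicate 1 alone was well above the controls.

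Ndufa4l2 is known as a pericyte transcript in brain, so pericyte and smooth muscle markers stand beside it. Of 10 such markers 8 were tested. At 12 h, Rgs5 and Vtn fell, with changes of -1.01 and -1.09, while Abcc9, Acta2 and Kcnj8 rose, with 0.58, 0.98 and 1.39. The summed FPKM of the list was 45.3 to 48.0 in the controls and 34.3 to 35.0 at 12 h, and 84.8 in 48 h replicate 1, the library in which Ndufa4l2 was highest. Their part in the result was not tested.

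Ndufa11b is a processed pseudogene, an intronless copy, of the accessory subunit gene Ndufa11. The 60 bases from base 7 of the Ndufa11 coding sequence and the matching stretch of the copy show how close they are, with capitals at the 5 differences.
Ndufa11: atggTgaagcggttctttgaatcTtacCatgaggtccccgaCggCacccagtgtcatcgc
Ndufa11b: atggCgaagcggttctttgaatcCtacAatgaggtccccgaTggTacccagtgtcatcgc
Both come from GENCODE M21 on GRCm38, and over 423 aligned bases 94.8% were identical. Reads on Ndufa11b were 0, 1 and 0 in the controls, 1, 7 and 0 at 1.5 h, 11, 10 and 7 at 12 h, and 1, 0 and 0 at 48 h. All 3 libraries at 12 h were above the controls, and 3 of the 4 libraries above 0.5 FPKM were those of this group. Ndufa11 itself was at 52.1, 54.0 and 54.0 FPKM in the controls and 41.5, 49.6 and 46.9 at 12 h. With so similar a parent gene at a far higher level, reads of the pair may be split by the counting, and the Ndufa11b value is uncertain. The same holds for Ndufb4c, identical to Ndufb4 over 387 bases, Ndufs6b (96.5% to Ndufs6) and Cox6c2 (96.9% to Cox6c).

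Complex II also works in the citric acid cycle. Sdhc and Sdhd encode its membrane anchors. Sdhc was at 23.8, 25.1 and 24.8 FPKM in the controls, 15.3, 16.4 and 18.4 at 12 h, and 26.6, 26.0 and 25.4 at 48 h. Sdhd was at 64.7, 66.7 and 62.5, then 37.0, 42.8 and 47.6 at 12 h, and 65.5, 84.5 and 74.6 at 48 h. For both anchors the 3 libraries at 12 h were below every other library of the series. Their changes at 12 h were -0.53 ± 0.22 and -0.60 ± 0.28, and neither passed the test over all 12 libraries (limma adjusted p = 0.12 and 0.16). With the 1.5 h pair left out the adjusted p was 0.0013 and 0.0047.

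The catalytic subunits of complex II overlapped the controls at 12 h. Sdha, the flavoprotein, was at 81.1, 83.4 and 87.2 FPKM in the controls and 84.4, 91.8 and 79.2 at 12 h (change 0.02 ± 0.13). Sdhb, the iron-sulfur protein, was at 53.7, 55.1 and 49.8 against 52.5, 56.6 and 51.6 (0.02 ± 0.36). The difference between anchors and catalytic subunits was not itself tested. At 1.5 h Sdhb was at 195.5, 56.8 and 141.7, Sdha at 95.9, 86.1 and 101.5, Sdhc at 46.0, 20.4 and 35.2, and Sdhd at 148.7, 56.5 and 112.1. The change of Sdha at 1.5 h was 0.17 ± 0.13 (limma adjusted p = 0.39), and -0.43 with quantile normalization.

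Atp5s, a coupling factor of complex V, was lower at both later times. Its FPKM was 7.65, 8.42 and 6.25 in the controls, 5.28, 5.16 and 3.88 at 12 h, and 3.87, 5.68 and 4.15 at 48 h. The 6 later libraries were below all controls. The changes were -0.55 ± 0.20 at 12 h and -0.61 ± 0.20 at 48 h, and missed the threshold (limma adjusted p = 0.070 and 0.068). With the 1.5 h pair left out the adjusted p was 0.024 and 0.020. Atp5s was not named by the rule and was chosen after its values were seen.

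**Figure D4:**
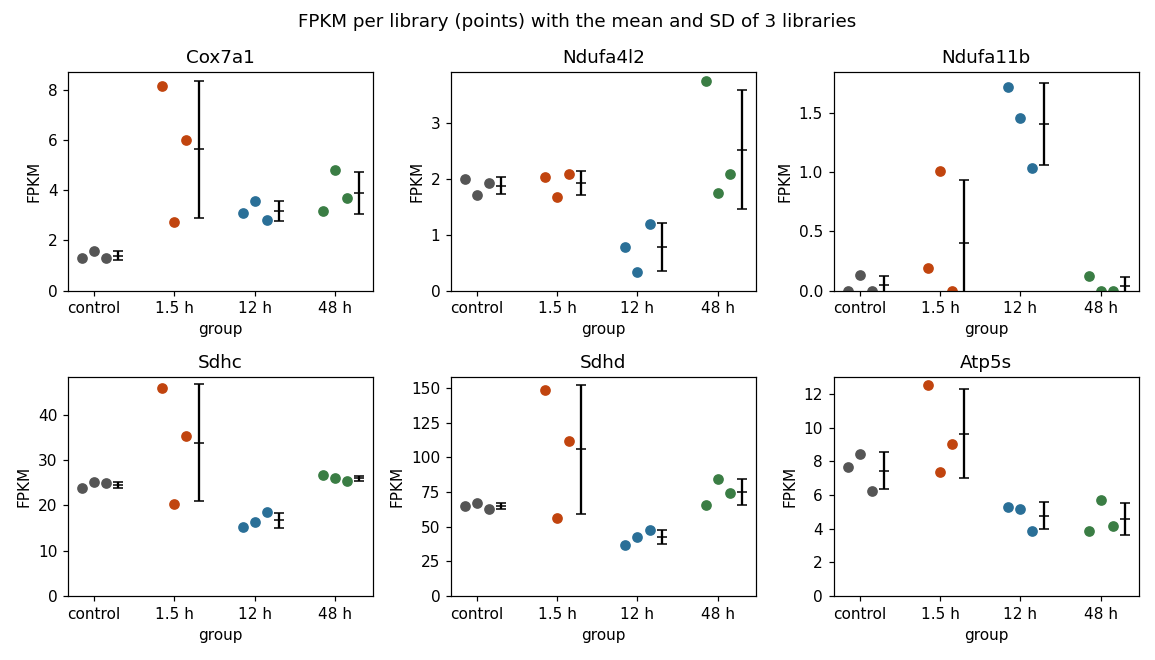
FPKM in each library (points) with the mean and SD of the 3 libraries (bars) for 6 members. Cox7a1 is above the controls in all treated groups, Ndufa4l2, Sdhc and Sdhd are below them at 12 h, Ndufa11b is above them at 12 h, and Atp5s is below them at 12 h and 48 h.

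At 48 h the median member change was 0.22, against 0 over all genes, and Cox7a1 was the 1 member called by limma, where 12.5% of all genes were called. Library medians were -0.11, 0.58 and 0.14 for replicates 1, 3 and 4, so replicate 3 was highest. In replicate 3, 88 members were above all controls, against 54 in replicate 4 and 10 in replicate 1, or 91.7%, 56.2% and 10.4%, where 38.5%, 36.8% and 36.6% of all genes were above. Replicate 1 had 43 members below all controls (44.8%), near the 38% of all genes. Groups did not overlap for 9 members that were higher (9.38%) and for 1 that was lower, Atp5s, against 21.1% and 22% of all genes. With the 1.5 h pair left out 3 members were called, Ndufb7 (0.48), Atp5s and Cox7a1, where 26.5% of all genes were. The median ribosomal protein gene was 0.42, 1.01 and 0.46 above the control mean in replicates 1, 3 and 4. Summed microglial markers were 458.4 to 521.2 FPKM at 48 h against 133.4 to 141.4 in the controls. Summed astrocyte markers were 705.8 to 945.0 against 444.9 to 477.3, of which Gfap alone was 437.3 to 631.7 against 12.7 to 26.4. The median change of the 8 astrocyte markers was -0.36, with 3 called higher and 1 lower by limma. The part of these values in the members' levels was not tested.

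Between the treated groups, 57 members fell and 1 rose at 12 h against 1.5 h by limma, or 60.4%, where 33.2% of all genes were called and 16.3% were called lower. At 48 h against 1.5 h, 10 members fell and none rose, where 17.8% of all genes were called and 8.87% were called lower, and at 48 h against 12 h, 1 rose and 2 fell, where 15.6% were. Ndufa11b is the 1 that rose at 12 h against 1.5 h. The 2 that fell at 48 h against 12 h are Ndufa11b and Cox7b2. Cox7b2 also passed the filter on low values only with its 12 h values (2 of the 3 libraries above 0.5 FPKM), so these calls have no weight. With the 1.5 h pair left out, no member was called at 12 h against 1.5 h, where 13.6% of all genes were (3 members and 29.7% of all genes at an unadjusted p below 0.05), and 2 were called at 48 h against 1.5 h, where 14.9% were. Those called at 48 h against 1.5 h in that setting were the processed pseudogenes Ndufb4c and Ndufa11b, whose values are uncertain. With the pair left out, 12 members rose and 3 fell at 48 h against 12 h, where 30.6% of all genes were called. Ndufa11b and Cox7b2 were among the 3 that fell. Sdhc and Sdhd were among those that rose (0.61 and 0.80, limma adjusted p = 0.00088 and 0.0015). The comparisons against 1.5 h share those 3 libraries, and those against 12 h share theirs.

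Several subunits have paralogs with other tissue preferences. The less abundant form made up 0.37% to 0.87% of the summed FPKM of Cox4i1 and Cox4i2, 0.51% to 1.63% of Cox6a1 and Cox6a2, 0.14% to 1.04% of Cox6b1 and Cox6b2, and 0.089% to 0.40% of Cox8a and Cox8b over the 12 libraries. Cox7a1 made up 1.03% to 1.20% of Cox7a1 and Cox7a2 in the controls, 1.06%, 2.04% and 1.46% at 1.5 h, 2.33% to 3.04% at 12 h and 2.11% to 2.71% at 48 h. The share was thus above the controls in every treated library but 1.5 h replicate 1, where Cox7a2 was itself at 758.4 FPKM against 105.4 to 136.9 in the controls. Cox7a2l, a related factor of supercomplex assembly, was at 99.8 to 112.1 in the controls and 102.3 to 120.8 at 12 h. The 3 genes of subunit c of complex V encode the same mature protein, and Atp5g3 gave 55.96% to 58.27% of their summed FPKM in the controls, 49.45%, 56.75% and 51.20% at 1.5 h and 59.59% to 62.22% at 12 h.

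The other genes of the pathway are read against the shares of all genes called by limma, 0.555% at 1.5 h, 21.2% at 12 h and 12.5% at 48 h. Of the 13 protein-coding genes of the mitochondrial genome, 1 rose at 1.5 h, mt-Atp8, a complex V subunit, at 3.40, 2.5 and 1.68 FPKM in the controls and 18.6, 10.8 and 41.0 at 1.5 h (change 2.63 ± 0.40, limma adjusted p = 0.021). All 3 libraries at 1.5 h were above all controls, replicate 2 included. By limma none of the 13 was called at 12 h or 48 h, and 1 and 0 had an unadjusted p below 0.05. Summed FPKM of 18 genes of electron carriers and coenzyme Q was 606.9, 258.5 and 463.9 at 1.5 h, against 226.6 to 246.0 in the controls. For assembly factors of complexes II to V it was 1809, 560.0 and 1221, against 467.9 to 564.4. No gene of either list was called by limma at 1.5 h. There, 14 of 18 and 18 of 31 had an unadjusted p below 0.05, where 31.6% of all genes had. At 12 h, 1 of the 18 rose, Coq10b (1.01), and 1 fell, Coq8a (-0.99). Of 31 tested assembly factors of complexes II to V, Cox15 rose (0.47), and Taco1 (-0.76) and Cox17 (-0.40) fell at 12 h.

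Summed FPKM of 17 citric acid cycle and pyruvate dehydrogenase genes was 1045, 675.4 and 922.2 at 1.5 h, against 640.7 to 654.0 in the controls. None of the 17 was called by limma at 1.5 h, 7 had an unadjusted p below 0.05 there, and Dlst rose at 12 h (0.38). The sum of 15 regulators of mitochondrial biogenesis did not set the 1.5 h pair apart, at 100.8, 102.0 and 100.9 against 88.8 to 95.5. Of 15 regulators of mitochondrial biogenesis, Nrf1, which encodes the factor whose motif is shown above, rose from 1.59, 1.52 and 1.44 FPKM to 2.74, 2.92 and 2.93 at 12 h (0.62 ± 0.09, limma adjusted p = 0.00092), and Tfb1m, a mitochondrial rRNA methyltransferase, fell (-0.54). The 12 h libraries did not overlap the controls for Nrf1, and its values at 48 h were 1.75, 1.86 and 1.76. At 48 h, none of 101 tested genes in the 6 pathway lists, which include the complex I core, was called by limma, and 8 had an unadjusted p below 0.05.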

How the data were processed

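The authors deposited 1 table of FPKM values for 12 libraries, with gene length and coordinates per the file headers. Bowtie 0.12.2 and mm8 are named per the submitters' processing notes; how reads were assigned to genes is not given in the sources used here. Of 98 members, 92 had the same start and end in GENCODE M21 (GRCm38), which gave coding lengths. Reads were recovered from the FPKM steps, and no further scaling was applied. In a check on the values with lower read numbers, which leaves out the highest members, 100.0% were whole within 0.05. limma 3.58.1 (R 4.3.3) with trend was fitted to log2(FPKM + 1) of all 17664 tested genes and all 4 groups, with Benjamini-Hochberg adjustment and a threshold of 0.05; it was tested on simulated data. Fold changes on this scale understate low genes. Named genes were those called against control, the highest and the longest gene of each role, the paralog sets, the Sdh genes and called pathway genes; 1 gene that this rule names is not reported here. Members and lists were chosen with earlier results of these data known. Alternatives were another pseudocount, filters, a 2-group fit, quantile normalization, a length correction, a replicate block, left-out libraries and voom.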

Additional observations from a re-analysis of the deposited data

Results flagged for a closer look

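Members named in the text whose levels differed between 2 treated times by the limma contrast of those times are given with the log2 difference. Lower at 12 h than at 1.5 h were Atp5e (-1.48, adjusted p = 0.04), Atp5g3 (-0.90, adjusted p = 0.048), Atp5l (-1.39, adjusted p = 0.048), Atp5o (-1.23, adjusted p = 0.044), Atp5s (-0.86, adjusted p = 0.0082), Cox6b1 (-1.45, adjusted p = 0.042), Cox6c (-1.47, adjusted p = 0.044), Cox7a2 (-1.60, adjusted p = 0.031), Ndufa1 (-1.59, adjusted p = 0.031), Ndufa11 (-1.35, adjusted p = 0.032), Ndufa4 (-1.71, adjusted p = 0.023), Ndufa4l2 (-0.75, adjusted p = 0.023), Ndufaf8 (-1.40, adjusted p = 0.023), Ndufb4 (-1.76, adjusted p = 0.018), Ndufs6 (-1.44, adjusted p = 0.025), Sdhb (-1.11, adjusted p = 0.038), Sdhc (-0.91, adjusted p = 0.012), Sdhd (-1.20, adjusted p = 0.0097), Uqcr10 (-1.54, adjusted p = 0.046) and Uqcrc1 (-0.73, adjusted p = 0.038). Lower at 48 h than at 1.5 h by limma were Atp5s (-0.92, adjusted p = 0.0092), Cox6a2 (-1.76, adjusted p = 0.031), Cox6b2 (-0.71, adjusted p = 0.043), Cox8a (-1.75, adjusted p = 0.034) and Ndufs6 (-1.45, adjusted p = 0.038). None of these differences from 1.5 h was called without 1.5 h replicates 1 and 3. Higher at 48 h than at 12 h by limma was Ndufa4l2 (0.98, adjusted p = 0.011), which was also called without that pair. Ndufa11b and Cox7b2 are left out here, because both passed the filter on low values only with their 12 h values.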

How the results depend on the processing

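The replicate numbers did not pair the libraries: deviations of 11 same-numbered pairs correlated at -0.26 to 0.16 (median -0.00), so the block is given only as an alternative setting. The block fit leaves out the unnumbered 12 h library. Members called by limma were 1 at 1.5 h, 2 at 12 h and 1 at 48 h against control, 58 at 12 h against 1.5 h, 10 at 48 h against 1.5 h and 3 at 48 h against 12 h. In that order, with the replicate block the changed counts were 0 at 1.5 h, 0 at 48 h, 1 at 12 h against 1.5 h, 0 at 48 h against 1.5 h and 0 at 48 h against 12 h. With only the 2 groups in the fit they were 0, 16, 2, 1, 0 and 7. Without a filter they were 0, 1, 0, 17 and 1 (48 h against 12 h stayed within 1.5 times), and with the stricter filter (above 1 FPKM in at least 6 libraries) 1 at 12 h and 1 at 48 h against 12 h. Length-corrected values gave 6 at 12 h, 2 at 48 h, 17 at 48 h against 1.5 h and 5 at 48 h against 12 h, and quantile normalization 5 at 12 h and 2 at 48 h. Leaving out 1.5 h replicates 1 and 3, chosen after seeing the data for the later comparisons, gave 0, 7, 3, 0, 2 and 15. Voom on recovered reads, added after seeing the data, gave 0 at 1.5 h, and leaving out the 4 pseudogenes, also added, gave 1 at 12 h. Leaving out 1 library gave 0 to 86 (86 without 1.5 h replicate 2), 1 to 2, 0 to 1, 5 to 89, 1 to 88 and 2 to 3. The number of all genes called also differed between settings and is not given beside these counts. The counts therefore describe the settings and are no result about the members in particular. The median member change at 1.5 h was 0.0293 without that pair, and 0.63 to 1.67 with 1 library left out. At 12 h the median was -0.15 with quantile normalization and -0.08 to 0.02 with 1 library left out, and at 48 h 0.03 to 0.34. At 1.5 h the direction reversed with quantile normalization for Atp5b (-0.0192), Ndufs1 (-0.11) and Sdha (-0.43), and without the pair for Atp5l (-0.23), Cox6c (-0.0402), Ndufab1 (-0.23) and Uqcr10 (-0.0776). The cause was not tested. The planned count models were not run, since the deposited values are not counts. Few reads limit Cox7a1, Ndufa4l2, Ndufa11b and Cox7b2.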
